A study of Mus musculus with 30 samples.

Results

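The proteasome genes of the mouse heart were followed across the p.S55L mutation of CHCHD10, the postpartum state and the EH301 diet. They were taken as every protein-coding gene whose symbol starts with Psma, Psmb, Psmc or Psmd, separately in each of the 2 deposited count tables. This rule found 40 genes among 78258 in the postpartum study and the same number, 40, among 56691 in the diet study. In the postpartum study 38 of them passed the filter on low counts and were tested, among 11945 genes tested. In the diet study 35 were tested, among 10335.

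The samples were hearts, sequenced from the 3′ ends of their mRNAs. In the postpartum study the groups were wild-type (WT) naive mice aged to 100 days, S55L naive mice aged to 100 days, and WT PP and S55L PP mice, mated at an age of 65 days, whose hearts were taken on postpartum day 0. In the diet study every mouse was S55L and at postpartum day 0, and was given either a control diet or the EH301 diet while breeding; the labels do not give their ages. Each of the 6 groups had 5 deposited columns. The labels name heart tissue as a whole, no sorting of cells, no sex and no copy number of the mutated allele. They do not state that each library came from its own mouse, so a p-value measures only how far these libraries spread. Counts of 3′ tags do not read the mutated base, so they do not check the genotype labels. In bulk tissue, fewer cells of a type and less RNA per cell cannot be told apart.

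The 26S proteasome is the protease that degrades most ubiquitin-tagged proteins in the cytosol and nucleus. Its 20S core is a barrel of outer α rings, which gate the entrance, and inner β rings, which carry the catalytic sites; the 19S regulatory particle caps the barrel, with an ATPase ring that unfolds substrates and non-ATPase subunits that bind and remove ubiquitin. In immune cells and under interferon, 3 catalytic β subunits are replaced by Psmb8, Psmb9 and Psmb10, which gives the immunoproteasome. In heart muscle the proteasome removes damaged and sarcomeric proteins.

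By role, the 40 genes were 8 α subunits, 7 constitutive β subunits, the thymus subunit Psmb11, 3 immunoproteasome subunits, 6 ATPases, 11 non-ATPase subunits and 3 chaperones of 19S assembly. The remaining gene, Psmc3ip, is a meiotic recombination factor and no proteasome subunit, but matched the symbol rule. Psma8, an α subunit of the testis, had 2 to 15 counts summed over the libraries of a group in the postpartum study and was not tested. Psmb11 had 0 counts in every group of that study, which allows at most 3 counts over a group.

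Several columns could not be used as separate libraries. Columns 1 and 2 of WT PP held identical counts, as did columns 1 and 2 of S55L PP, and each pair was counted as 1 library, leaving n = 4. Column 5 of the control diet was identical to column 6 of the EH301 diet, and both were left out, leaving n = 4 and n = 4. Reads on genes ranged from 1418715 to 2949993 in the WT libraries and from 2755500 to 5131316 in the S55L libraries of the postpartum study. The well in each column header put every WT library except WT PP 1 in plate column 1, and every S55L library in plate columns 2 and 3. Genotype and plate column can therefore hardly be told apart there. Among S55L libraries, the naive ones were all in plate column 2, as was S55L PP 5, and the other PP ones were in plate column 3. The share of reads on genes also parted the genotypes, at 58.3% to 61.6% in WT and 66.3% to 69.2% in S55L libraries, and its part in the results was not tested. In the diet study control diet 1 had 466651 reads on genes and EH301 diet 8 had 1141997, against at least 2551771 in the others. The control diet libraries used lay in plate columns 1 and 2, and the EH301 diet libraries used in plate column 3. Diet and plate column therefore cannot be told apart.

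The tissue label was checked against the heart's own markers. All 10 markers of ventricular cardiomyocytes were tested in both studies, and their summed level was at least 36334 CPM in every library, where CPM are counts scaled to a common library size of reads on genes, with edgeR's trimmed-mean factor on each library size. Their sum was 93627 ± 7991 CPM (SD, n = 5) in WT naive and 49787 ± 5437 CPM (SD, n = 5) in S55L naive hearts, and 89041 ± 8004 and 43323 ± 4900 CPM (SD, n = 4 and n = 4) in PP hearts. Fibroblast markers summed to 1.72 and 1.89 times their WT level in S55L naive and PP hearts, with no overlap and with 6 and 7 of 9 called higher. Endothelial markers summed to 0.761 and 0.754 times the WT level, the first without and the second with overlap, with 4 and 2 of 11 called lower. Markers of leukocytes and macrophages went the other way, from 400 ± 34.6 to 2003 ± 171 CPM (SD, n = 5 and n = 5). Of the 10 cardiomyocyte markers, 9 were called lower in each state. Beside these counts, 21.9% of all genes tested were higher and 21.6% lower in naive hearts, and 16.4% and 15.2% in PP hearts. Since the libraries hold 3′ tags, levels were compared between groups for a gene and not between genes.

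Promoter sequence is shown for 3 genes that rose in S55L hearts: Psmc6, the only gene higher in S55L naive hearts that held a TGACNNNGC match, and Psmd8 and Psmd14, which rose most in naive hearts and were added after their values were seen. Sequences are from RefSeq, build GRCm38.p6, 5′ to 3′ on the gene's strand, each ending before the first transcribed base of the gene in GENCODE M21; capitals mark a motif match. The stretches are chr14:45329574-45329787 (+) for Psmc6, chr7:29180702-29180923 (-) for Psmd8 and chr2:61711444-61711693 (+) for Psmd14.
Psmc6: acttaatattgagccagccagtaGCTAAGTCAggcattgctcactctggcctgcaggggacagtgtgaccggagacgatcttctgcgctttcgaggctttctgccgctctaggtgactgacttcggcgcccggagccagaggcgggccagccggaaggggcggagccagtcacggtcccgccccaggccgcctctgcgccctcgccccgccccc
Psmd8: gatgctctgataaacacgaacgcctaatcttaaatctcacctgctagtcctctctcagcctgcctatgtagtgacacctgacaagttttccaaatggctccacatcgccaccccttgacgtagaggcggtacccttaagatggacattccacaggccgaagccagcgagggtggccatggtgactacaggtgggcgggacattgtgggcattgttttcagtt
Psmd14: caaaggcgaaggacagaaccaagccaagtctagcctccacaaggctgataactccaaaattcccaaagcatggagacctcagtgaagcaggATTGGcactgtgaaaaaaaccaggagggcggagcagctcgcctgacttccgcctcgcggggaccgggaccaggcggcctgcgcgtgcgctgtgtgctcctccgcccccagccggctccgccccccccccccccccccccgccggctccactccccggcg

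Windows from 250 bases before to 50 after the start were in the RefSeq table for 33 of the 40 genes, and 3 motifs are given, searched on both strands. TGACNNNGC, the core of the antioxidant response element bound by NFE2L1 and NFE2L2, was found in 5 of the 33 genes (15.2%) and in 14% of all genes with a window. It was found in Psmb5, Psmb6, Psmc6, Psmd9 and Psmd12. GAAANNGAA, the core of the interferon-stimulated response element, was found in 5 genes (15.2%, against 9.76% of all genes). These genes were Psmb3, Psmb4, Psmc2, Psmd4 and Psmd9, none an immunoproteasome subunit. CCAAT was found in 14 (42.4%, against 41.1%). Of the 12 genes called higher in S55L naive hearts that have a window, 1 held TGACNNNGC, and of the other 20 tested that have one, 4 did. A match is only a run of letters in this window, and it says nothing of a factor's binding.

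The first comparison asked how proteasome genes differed between S55L and WT hearts of naive mice. Of the 38 tested, 13 were higher in S55L (34.2%) and 0 were lower, where 21.9% of all genes tested were higher and 21.6% lower (edgeR quasi-likelihood test; calls at a Benjamini-Hochberg adjusted p under 0.05). The rises came from nearly every role: 3 of 7 α subunits, 1 of 7 constitutive β subunits, 1 of 3 immunoproteasome subunits, 3 of 6 ATPases, 3 of 11 non-ATPase subunits and 2 of 3 assembly chaperones. Their median log2 fold change was 0.19, against -0.004 over all genes tested, with a range from -0.999 for Psmc3ip to 1.56 for Psmd8. Only Psmd8 and Psmd14 reached 2-fold among those called. At an unadjusted p under 0.05 in the edgeR test, 17 of the 38 passed, as did 6069 of the 11945 genes tested. The DESeq2 test called 13 higher and 0 lower, where 22.4% of all genes tested were higher and 21.5% lower.

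The same question in PP mice gave 13 proteasome genes higher in S55L (34.2%) and 1 lower (2.63%), where 16.4% of all genes tested were higher and 15.2% lower. The median log2 fold change was 0.28, against 0.00 over all genes tested. By role, 3 of 7 α subunits, 2 of 7 constitutive β subunits, 1 of 3 immunoproteasome subunits, 1 of 6 ATPases, 4 of 11 non-ATPase subunits and 2 of 3 chaperones were higher, and 1 non-ATPase subunit was lower. The naive and PP comparisons share no library, only the estimate of the spread. In both states 11 genes were called higher: Psma2, Psma3, Psma5, Psmb1, Psmb10, Psmc6, Psmd5, Psmd8, Psmd10, Psmd11 and Psmd14. That is 84.6% of each list of 13; among all genes tested, 64.1% of those higher in naive hearts were also higher in PP hearts, and 85.7% of those higher in PP hearts were also higher in naive hearts.

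**Figure D1:**
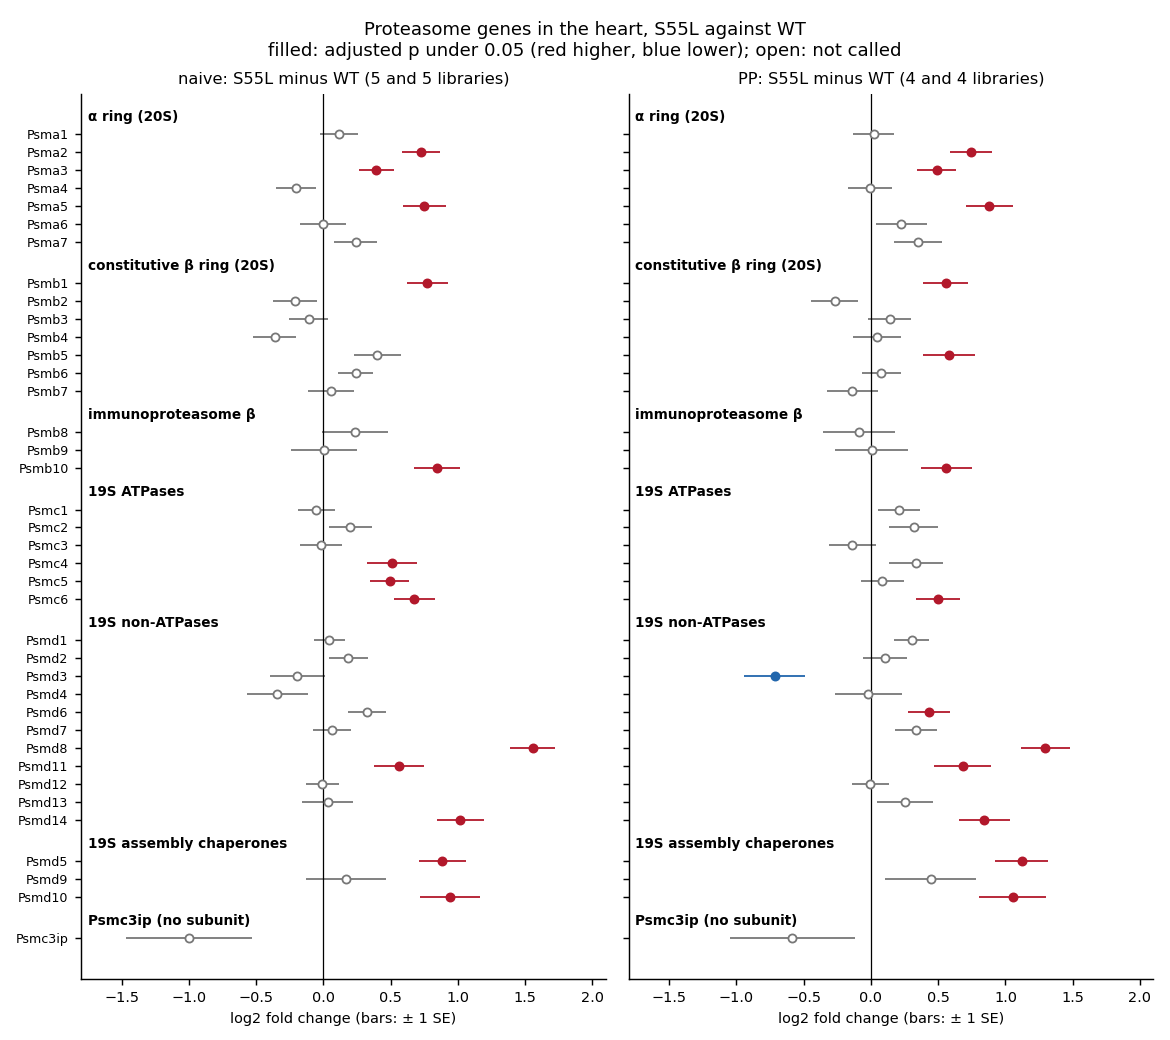
Log2 fold change (x axis) of the 38 proteasome genes tested (y axis, grouped by role) between S55L and WT hearts, naive on the left and PP on the right; bars are ± 1 SE, filled points passed an adjusted p of 0.05 in the edgeR quasi-likelihood test. Psmd8 stands farthest to the right in both states, at 1.56 and 1.30, and Psmd3 in PP hearts, at -0.72, is the only filled point below 0.

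Both counts depend on the scale. With library totals in place of trimmed means, the median of all genes tested moved to 0.24 in naive and 0.27 in PP hearts, and the split of all genes to 33.6% higher against 12.4% lower and 28.9% against 8.2%. On that scale 18 proteasome genes were higher and 0 lower in naive hearts, with a median of 0.44, and 19 and 0 in PP hearts, with a median of 0.55. The median of the proteasome genes lay above that of all genes tested on both scales.

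Groups of libraries that did not overlap were no more common among proteasome genes than elsewhere. In naive hearts 12 of 38 (31.6%) had all S55L libraries on one side of all WT libraries, against 32.2% of all genes tested. In PP hearts 8 of 38 (21.1%) did, against 25.4%. These shares lie near the background.

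In the α ring, which gates the core, Psma2, Psma3 and Psma5 were higher in S55L in both states. Psma2 rose 1.66-fold in naive hearts, from a mean of 207 to 343 CPM (log2 fold change 0.73, SE 0.14, edgeR adjusted p = 0.000162), and 1.68-fold in PP hearts (0.74, SE 0.16, edgeR adjusted p = 0.000586). Psma5 rose by 0.75 (SE 0.16, edgeR adjusted p = 0.000447) and by 0.88 (SE 0.18, edgeR adjusted p = 0.000341) on the log2 scale. Psma3 had smaller values, 0.39 (SE 0.13, edgeR adjusted p = 0.0147) and 0.49 (SE 0.14, edgeR adjusted p = 0.00999). Without WT naive 4 its naive call was lost, at an edgeR adjusted p of 0.0536. With all libraries thinned to the lowest depth, its PP call was lost. The other 4 α subunits tested did not pass in either state: Psma1 was at 0.12 and 0.02, Psma4 at -0.20 and -0.01, Psma6 at 0.00 and 0.23, and Psma7 at 0.24 and 0.35.

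In the β ring, Psmb1, which has no catalytic site, was the only constitutive subunit called in both states. It rose by 0.77 (SE 0.15, edgeR adjusted p = 0.000184) in naive and by 0.56 (SE 0.17, edgeR adjusted p = 0.0118) in PP hearts. Without WT PP 3 or S55L PP 5 its adjusted p in PP hearts was 0.0538 and 0.0733. Psmb2, Psmb3 and Psmb4, also without a catalytic site, were not called; Psmb4 was at -0.36 in naive hearts, where its S55L libraries all lay below its WT libraries, and at 0.04 in PP hearts.

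Psmb5 carries the chymotrypsin-like site. Its levels were 101, 69.8, 95.9, 82.1 and 89.5 CPM in WT naive libraries 1 to 5 and 117, 122, 146, 90.4 and 105 CPM in S55L naive libraries 1 to 5. In WT PP libraries 1, 3, 4 and 5 they were 86.1, 89.9, 87.6 and 131 CPM, and in S55L PP libraries 1, 3, 4 and 5 they were 198, 126, 99.5 and 168 CPM. In naive hearts every S55L library except S55L naive 4 lay above all WT libraries, and in PP hearts only S55L PP 1 and 5 did. The groups overlapped in both states. The fold change was 0.40 (SE 0.17, edgeR adjusted p = 0.0645) in naive hearts, which missed the threshold, and 0.58 (SE 0.19, edgeR adjusted p = 0.0226) in PP hearts. Under 8 of 28 alternatives the naive value did pass (library totals, no filter, only the compared groups, the replicate block, and leaving out S55L naive 4, WT PP 5, S55L PP 1 or S55L PP 4), with edgeR adjusted p from 0.00723 to 0.0470, and up to 0.189 over all 28. The PP call did not survive leaving out any 1 of WT PP 1, 3 or 4 or S55L PP 1 or 5, with adjusted p from 0.0607 to 0.0982.

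Psmb6 carries the caspase-like site. It was at 185, 181, 158, 193 and 177 CPM in WT naive, and at 200.1, 211, 244, 208 and 193 CPM in S55L naive libraries 1 to 5. In PP hearts it was at 161, 211, 185 and 249 CPM in WT and at 201, 199, 201 and 250.3 CPM in S55L libraries 1, 3, 4 and 5. The groups overlapped slightly in naive hearts, where S55L naive 5 lay just below WT naive 4, and widely in PP hearts. The fold changes of 0.24 (SE 0.13, edgeR adjusted p = 0.142) and 0.08 (SE 0.15, edgeR adjusted p = 0.726) did not pass. Under 1 of 28 alternatives, library totals as the scale, the naive value did pass (edgeR adjusted p = 0.00515).

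Psmb7 carries the trypsin-like site. It was at 51.7, 67.3, 68.0, 68.4 and 85.0 CPM in WT naive, and at 79.8, 74.7, 89.5, 63.0 and 47.4 CPM in S55L naive libraries 1 to 5. In PP hearts it was at 64.5, 93.3, 78.6 and 65.6 CPM in WT and at 71.3, 60.9, 86.4 and 54.2 CPM in S55L libraries 1, 3, 4 and 5. The groups overlapped in both states, with fold changes of 0.06 (SE 0.17) and -0.14 (SE 0.19). GENCODE M21 names pseudogenes of Psmb5, Psmb6 and Psmb7, 4 in all, and reads aligned to several places were not counted, so the levels of these 3 genes are uncertain. The share of such reads went with genotype, at 24.7% to 27.3% in WT and 17.5% to 21.2% in S55L libraries.

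The immunoproteasome subunits did not move together. Psmb10, which takes the place of Psmb7, was at 37.4, 34.1, 48.2, 45.6 and 48.7 CPM in WT naive libraries 1 to 5 and at 69.2, 70.3, 103, 75.5 and 68.7 CPM in S55L naive libraries 1 to 5. Every S55L naive library lay above every WT naive library. The rise was 1.80-fold, from 42.8 ± 6.66 to 77.3 ± 14.5 CPM (SD, n = 5 and n = 5; log2 fold change 0.85, SE 0.17, edgeR adjusted p = 0.000212).

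In PP hearts Psmb10 was at 39.3, 44.4, 34.2 and 48.1 CPM in WT and at 44.8, 60.3, 83.5 and 57.3 CPM in S55L libraries 1, 3, 4 and 5. S55L PP 1 lay below WT PP 5, whereas the other 3 lay above every WT library. The fold change was 0.56 (SE 0.19, edgeR adjusted p = 0.0221), and it lost its call without WT PP 1, WT PP 4 or S55L PP 4, at adjusted p of 0.0511, 0.0759 and 0.128. The counts of Psmb10 per count of Psmb7 were 1.12 ± 0.229 in S55L naive against 0.635 ± 0.0933 in WT naive libraries (SD, n = 5 and n = 5), with no overlap. In PP hearts the ratios were 0.910 ± 0.192 and 0.563 ± 0.136 (SD, n = 4 and n = 4), with overlap. The other immunoproteasome subunits went the other way in this measure. Mean counts of Psmb8 per count of Psmb5 were 0.878 and 0.648 times the WT value in S55L naive and PP hearts. For Psmb9 per count of Psmb6 they were 0.830 and 0.894 times it, and all these groups overlapped.

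Psmb8, which takes the place of Psmb5, was low throughout. It was at 9.21, 8.11, 11.0, 6.27 and 12.3 CPM in WT naive and at 9.12, 12.6, 17.5, 8.76 and 7.58 CPM in S55L naive libraries 1 to 5. In PP hearts it was at 8.29, 11.1, 11.4 and 9.62 CPM in WT and at 10.03, 9.15, 10.4 and 7.75 CPM in S55L libraries 1, 3, 4 and 5. The groups overlapped, with fold changes of 0.23 (SE 0.24, edgeR adjusted p = 0.453) and -0.09 (SE 0.27, edgeR adjusted p = 0.829). These values rest on 10 to 79 counts a library.

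Psmb9, which takes the place of Psmb6, was at 15.4, 19.5, 19.8, 9.12 and 12.8 CPM in WT naive and at 9.32, 16.7, 15.5, 14.98 and 19.3 CPM in S55L naive libraries 1 to 5. In PP hearts it was at 17.3, 20.5, 15.6 and 8.20 CPM in WT and at 10.9, 13.6, 19.8 and 16.7 CPM in S55L libraries 1, 3, 4 and 5. Its group means lay between 15.2 and 15.4 CPM in all 4 groups, and the fold changes were 0.00 (SE 0.25) and 0.01 (SE 0.27).

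**Figure D2:**
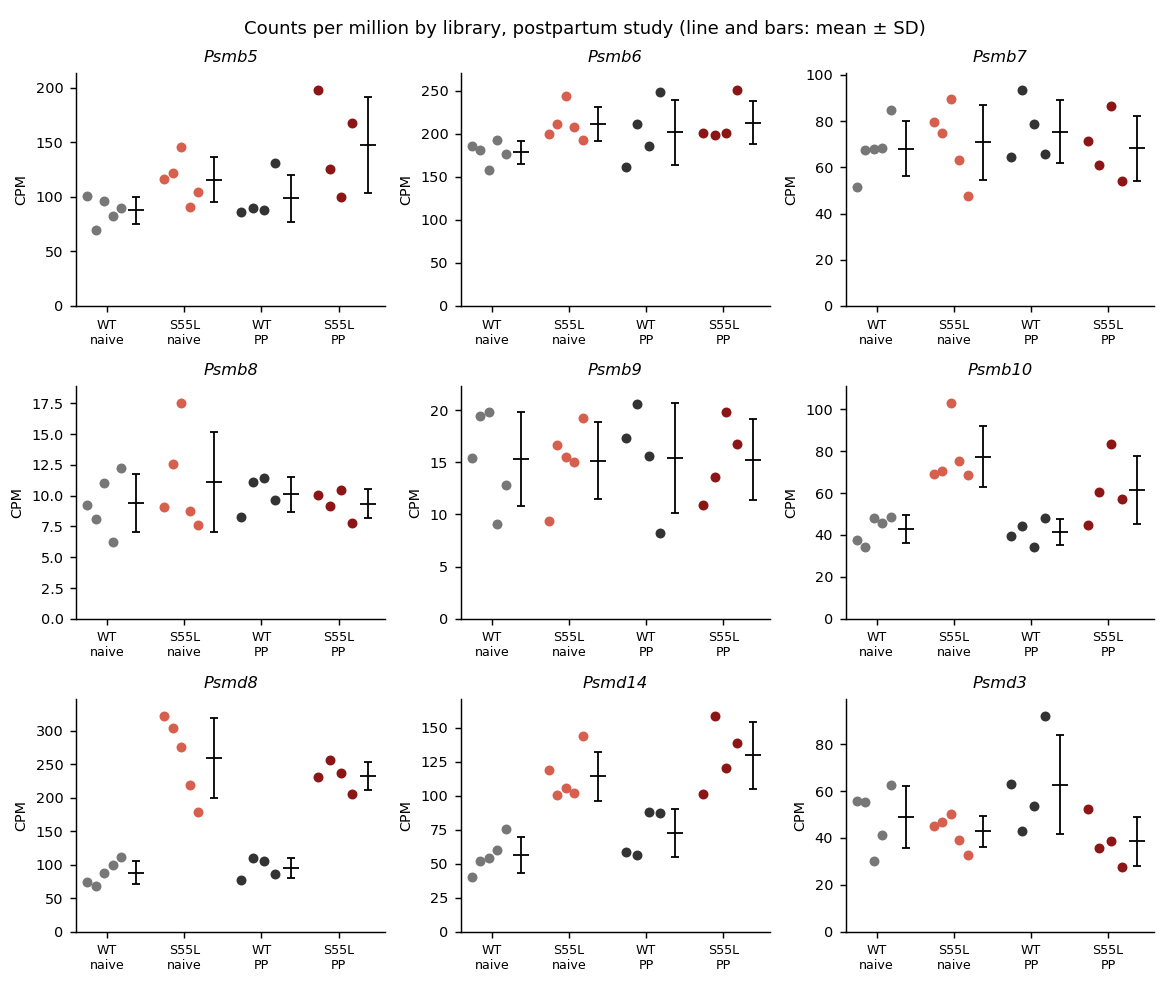
CPM (y axis, from 0) of 9 proteasome genes in each library of the 4 groups of the postpartum study (x axis); points are libraries, and the line and bars give mean ± SD. The S55L points of Psmd8 and Psmd14 lie above all WT points of the same state, those of Psmb10 do so in naive hearts, and those of Psmb8 and Psmb9 lie among the WT points.

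Leukocyte markers moved with genotype beside Psmb10. All 15 leukocyte and macrophage markers tested were higher in S55L naive hearts, and 13 of 15 in S55L PP hearts. The shares higher over all genes tested were 21.9% and 16.4%. Their summed level ranged from 345 to 439 CPM in WT naive and from 1801 to 2198 CPM in S55L naive libraries, and from 478 to 612 CPM in WT PP and from 1565 to 2728 CPM in S55L PP libraries. No marker of this list was at 0 in any group. Of 13 T, B and NK cell markers in the table none was tested, their sum was at most 5.57 CPM in any library of this study, and Cd79a was at 0 throughout. The part of these cells, and of the other cell types whose markers moved with genotype, in the rise of Psmb10 and in the other genotype differences was not tested.

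Genes of class I antigen presentation and interferon signalling, the setting in which immunoproteasomes are known to work, gave 5 higher and 1 lower of 18 tested in naive hearts, and again 5 and 1 in PP hearts. The class I heavy chain H2-K1 rose by 1.07 (SE 0.19) and 0.70 (SE 0.21), and its light chain B2m by 0.78 (SE 0.16) and 0.56 (SE 0.18), with edgeR adjusted p of at most 0.0194. Ifit3, an interferon-induced gene, rose by 1.53 (SE 0.34, edgeR adjusted p = 0.000901) and 0.98 (SE 0.33, edgeR adjusted p = 0.0272). The endoplasmic reticulum chaperone Calr fell by 1.44 and 0.65 on the log2 scale. The median of the list was 0.23 in naive and 0.04 in PP hearts, against -0.004 and 0.00 over all genes tested. Of all genes tested, 21.9% were higher and 21.6% lower in naive hearts, and 16.4% and 15.2% in PP hearts.

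In the ATPase ring, which unfolds substrates, Psmc6 was the gene called in both states. It rose by 0.68 (SE 0.15, edgeR adjusted p = 0.000695) in naive and by 0.50 (SE 0.17, edgeR adjusted p = 0.0220) in PP hearts, where the lowest S55L library lay just above the highest WT library. The PP call was lost without WT PP 3, WT PP 4 or S55L PP 5, at adjusted p of 0.0742, 0.0676 and 0.102. Psmc5 rose in naive hearts by 0.49 (SE 0.15, edgeR adjusted p = 0.00796) and was at 0.09 (SE 0.16) in PP hearts. Psmc4 rose in naive hearts by 0.51 (SE 0.18, edgeR adjusted p = 0.0264) and was at 0.34 (SE 0.20) in PP hearts. The call of Psmc4 was lost without WT naive 1, WT naive 4 or S55L naive 4, at adjusted p of 0.0748, 0.0696 and 0.0593. Psmc1, Psmc2 and Psmc3 ranged from -0.14 to 0.32 over both states and were not called.

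Among the non-ATPase subunits, Psmd8, a lid subunit that completes lid assembly in yeast, had the largest rise of all. It was at 73.7, 69.0, 87.8, 99.2 and 111 CPM in WT naive and at 322, 305, 276, 218 and 179 CPM in S55L naive libraries 1 to 5. In PP hearts it was at 77.9, 110.5, 106 and 86.2 CPM in WT and at 231, 257, 237 and 206 CPM in S55L libraries 1, 3, 4 and 5. The lowest S55L library lay well above the highest WT library in both states.

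The rise of Psmd8 was 2.94-fold in naive hearts, from 88.1 ± 17.5 to 260 ± 60.1 CPM (SD, n = 5 and n = 5; log2 fold change 1.56, SE 0.17, edgeR adjusted p = 2.57e-08). It was 2.46-fold in PP hearts, from 95.0 ± 15.5 to 233 ± 21.0 CPM (SD, n = 4 and n = 4; 1.30, SE 0.18, edgeR adjusted p = 3.62e-06). Psmd14, the deubiquitinase that cuts ubiquitin chains off substrates, rose 2.02-fold in naive (1.02, SE 0.17, edgeR adjusted p = 3.45e-05) and 1.79-fold in PP hearts (0.84, SE 0.19, edgeR adjusted p = 0.00114). Both genes were separated from WT in every library of both states.

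Psmd11, a lid scaffold, rose by 0.56 (SE 0.19, edgeR adjusted p = 0.0174) and 0.68 (SE 0.21, edgeR adjusted p = 0.0140), and Psmd6, another lid subunit, by 0.43 (SE 0.16, edgeR adjusted p = 0.0360) in PP hearts. Psmd11 depended on single libraries and on the plate: without WT naive 1, S55L naive 1 or WT PP 5 its adjusted p was 0.0505, 0.0715 and 0.0575, and with a plate column term its values turned to -0.045 and -0.067. Psmd6 lost its call without any 1 of WT PP 1, 3 or 4 or S55L PP 5, at adjusted p from 0.0659 to 0.155. Its call was also lost with libraries thinned to the lowest depth.

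Psmd3, a lid scaffold, was the only proteasome gene called lower. It was at 63.1, 42.7, 53.4 and 91.9 CPM in WT PP and at 52.35, 35.7, 38.5 and 27.6 CPM in S55L PP libraries 1, 3, 4 and 5. In naive hearts it was at 55.8, 55.2, 30.2, 41.0 and 62.4 CPM in WT and at 44.95, 46.7, 50.1, 39.3 and 32.9 CPM in S55L libraries 1 to 5. The groups overlapped in both states. It fell by 0.72 on the log2 scale in PP hearts (SE 0.23, edgeR adjusted p = 0.0172), and was at -0.19 (SE 0.21) in naive hearts. The PP call was lost without WT PP 5, the highest library, or without S55L PP 5, the lowest, at adjusted p of 0.111 and 0.0649, and with library totals as the scale.

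The other non-ATPase subunits were Psmd1 and Psmd2, the scaffolds of the base, Psmd4, a ubiquitin receptor, and Psmd7, Psmd12 and Psmd13 of the lid. None was called in either state, and their values ranged from -0.34 to 0.34. Psmd4 was at -0.34 (SE 0.23) in naive and at -0.02 (SE 0.25) in PP hearts.

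The assembly chaperones of the 19S base split in the same way in both states. Psmd10, also known as gankyrin, rose 1.92-fold in naive (log2 fold change 0.94, SE 0.23, edgeR adjusted p = 0.00136) and 2.08-fold in PP hearts (1.05, SE 0.25, edgeR adjusted p = 0.00166). Psmd5 rose 1.85-fold (0.88, SE 0.18, edgeR adjusted p = 0.000220) and 2.18-fold (1.12, SE 0.20, edgeR adjusted p = 6.88e-05). Psmd9 was at 0.17 (SE 0.30) and 0.44 (SE 0.34) and did not pass, at a mean of 6.48 to 9.17 CPM in the 4 groups. The libraries of Psmd10 and Psmd5 did not overlap between genotypes in either state.

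Assembly factors with other symbols gave 6 higher and 0 lower of 11 tested in naive hearts, and 3 and 1 in PP hearts. The shares over all genes tested were 21.9% higher and 21.6% lower, and 16.4% and 15.2%. Pomp, the chaperone of core maturation, rose by 0.89 (SE 0.15, edgeR adjusted p = 2.45e-05) and 0.53 (SE 0.17, edgeR adjusted p = 0.0156); without S55L PP 4 the PP value was 0.41, at an adjusted p of 0.0731. Psmg4, a chaperone of α ring assembly, rose by 0.77 and 0.81, and Usp14, a deubiquitinase bound to the proteasome, by 0.58 and 0.56, with edgeR adjusted p of at most 0.00325. Txnl1, a thioredoxin of the 19S particle, rose by 0.46 in naive hearts, and Ecpas, a proteasome adaptor, fell by 0.53 in PP hearts.

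Of 6 activators and inhibitors, 2 were higher and 1 lower in naive hearts, and 0 and 1 in PP hearts. Among all genes tested the shares were 21.9% higher and 21.6% lower, and 16.4% and 15.2%. Psme1, a subunit of the interferon-inducible cap PA28, fell by 0.66 (SE 0.12, edgeR adjusted p = 8.61e-05) and by 0.89 (SE 0.14, edgeR adjusted p = 1.12e-05), opposite in direction to Psmb10. Psmf1, an inhibitor of the core, rose by 0.79 (SE 0.19, edgeR adjusted p = 0.00119), and Psme3, a nuclear cap, by 0.70 (SE 0.17, edgeR adjusted p = 0.00160), both in naive hearts.

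Of the 5 genes tested that control proteasome transcription in mammals, 0 were called in either state by the edgeR quasi-likelihood test. In that test 1 and 0 had an unadjusted p under 0.05, as did 6069 and 4946 of the 11945 genes tested. Among all genes tested, 21.9% were called higher and 21.6% lower in naive hearts, and 16.4% and 15.2% in PP hearts. DESeq2 results were read only for Nfe2l1 and Nfe2l2 of this list, and neither was called. Nfe2l1, the transcription factor that raises proteasome genes when proteasomes fail, was at -0.08 (SE 0.16) and 0.24 (SE 0.18). Nfe2l2, the related factor of oxidative stress, was at -0.01 (SE 0.19) and 0.16 (SE 0.21). Nfe2l1 in PP hearts passed with library totals as the scale (0.52, edgeR adjusted p = 0.0288) and without S55L PP 5 (0.42, edgeR adjusted p = 0.0483), within a range of -0.61 to 0.52 and of adjusted p up to 0.666 over 28 alternatives. Nfe2l2 in naive hearts passed with a plate column term, at -0.89 (edgeR adjusted p = 0.0498), within a range of -0.89 to 0.23 and of adjusted p up to 0.997. Both factors act mainly through the amount of protein, which was not measured here.

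Ubiquitin genes, activating enzymes and shuttles gave 7 higher and 0 lower of 13 tested in naive hearts, and 9 and 0 in PP hearts. Sqstm1, an autophagy receptor for ubiquitin, led with 2.72 (SE 0.17) and 2.82 (SE 0.19). Rps27a, a ubiquitin and ribosome fusion gene, rose by 0.80 and 0.94, and the polyubiquitin gene Ubb by 0.53 and 0.92. Among 10 ubiquitin ligases of muscle, 2 were higher and 3 lower in naive hearts, and 1 and 3 in PP hearts; Asb2 fell by 1.26 and 0.97, and Trim55, a sarcomere ligase, by 1.24 and 1.05, while Fbxo40 rose by 0.78 and 0.92. Over all genes tested, 21.9% were higher and 21.6% lower in naive hearts, and 16.4% and 15.2% in PP hearts. These lists were described by counts and have no test of their own.

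Summed over each role, the transcripts gave small shifts. The 31 constitutive subunits of the 26S proteasome summed to 3648 ± 134 CPM in WT naive and 4362 ± 225 CPM in S55L naive libraries (SD, n = 5 and n = 5), a ratio of 1.20. In PP hearts the sums were 3710 ± 170 and 4599 ± 310.6 CPM (SD, n = 4 and n = 4), a ratio of 1.24. The groups did not overlap in either state. Leaving Psmd8 out of the sums, a choice made after its values were seen, the ratios were 1.15 and 1.21.

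The roles differed in these sums. The α ring had ratios of 1.26 and 1.34 with no overlap, the constitutive β ring 1.09 and 1.14 with overlap, and the ATPases 1.12 and 1.10 with overlap. The non-ATPase subunits had ratios of 1.27 and 1.32 with no overlap, and without Psmd8 1.13, with overlap, and 1.22, with none. The assembly chaperones had the highest ratios, 1.71 and 1.98, with no overlap. The immunoproteasome subunits had ratios of 1.53 and 1.28, the first without and the second with overlap. Psmb10 made up most of this sum, at a mean of 77.3 of 104 CPM in S55L naive hearts, while Psmb8 and Psmb9 were not called. These sums weight each gene by its own tags and carry no test.

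**Figure D3:**
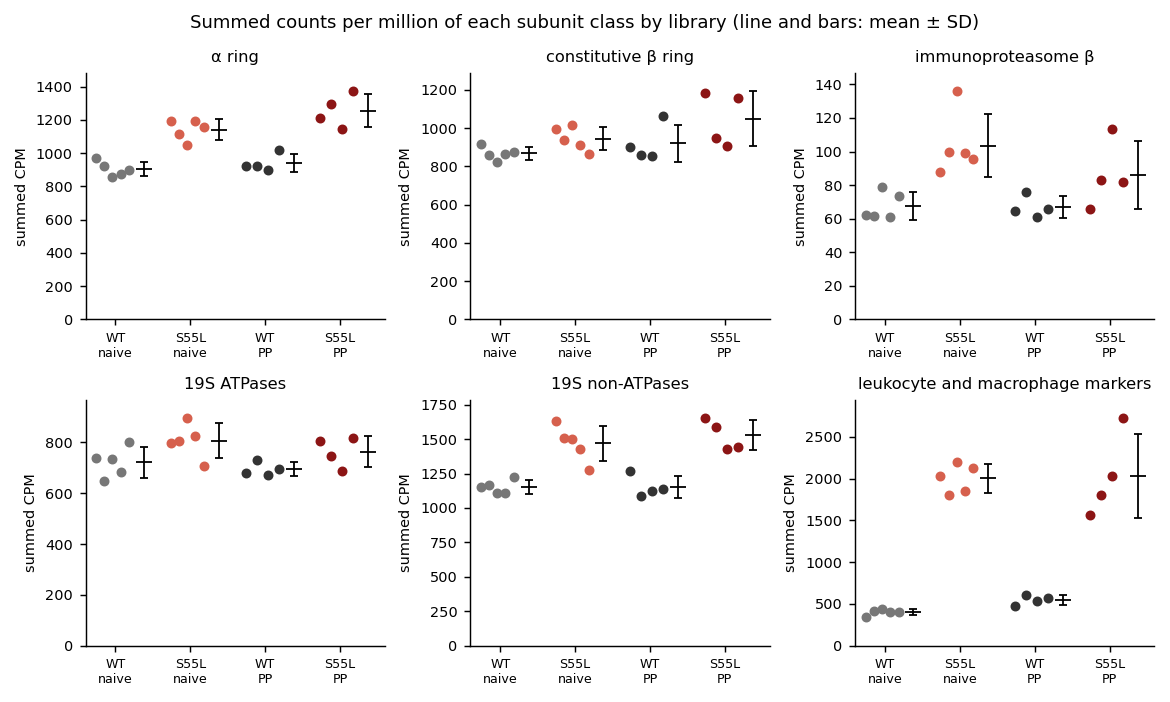
Summed CPM (y axis, from 0) of 5 groups of subunits and of the leukocyte and macrophage markers in each library (x axis, 4 groups of the postpartum study); points are libraries, and the line and bars give mean ± SD. The α ring and the non-ATPase subunits separate S55L from WT in both states, the β ring and the ATPases do not, and the leukocyte markers rise from 400 to 2003 CPM between naive WT and S55L hearts.

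Plate column went almost wholly with genotype, so only 1 WT library, WT PP 1, shared a plate column with S55L libraries, which is too few for a comparison within it. With plate column as a term, a fit added after the data were seen, 8 of the 13 genes kept their call in naive hearts and 8 of 13 in PP hearts, where 3 others, Psma6, Psmc2 and Psmc4, gained one. The calls lost in naive hearts were those of Psma3, Psmb10, Psmc6, Psmd5 and Psmd11, with adjusted p of 0.0655, 0.0542, 0.109, 0.137 and 0.948. In PP hearts Psma3, Psmb5, Psmb10, Psmc6 and Psmd11 lost theirs, with adjusted p of 0.0813, 0.0774, 0.322, 0.0586 and 0.925, as did Psmd3 at 0.0709, and outside the symbol rule Pomp at 0.270 and Psme1 at 0.0585 (all edgeR adjusted p). No proteasome gene within the symbol rule was called lower with the term in either state. Of all genes tested, 11.6% were higher and 12.4% lower in naive hearts with the term, against 21.9% and 21.6% without it. The term for plate column 2 rests on WT PP 1 against the other WT PP libraries. Plate column 3 held only S55L PP libraries, so in PP hearts this fit in effect set S55L PP 5 against WT PP 1. Its calls kept, lost or gained in PP hearts therefore do not rest on whole groups.

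The next comparisons asked whether the proteasome genes changed with the postpartum state. In WT hearts, 0 of 38 were higher and 0 lower in PP than in naive mice, where 0% and 0.0167% of all genes tested were. In S55L hearts 0 of 38 were higher and 0 lower, where 0% and 0% of all genes tested were. The edgeR quasi-likelihood test gave 0 proteasome genes at an unadjusted p under 0.05 in WT hearts, out of 756 genes in all, and 3 in S55L hearts, out of 749; the DESeq2 test also called 0.

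The 3 genes were Psmb3 at 0.43 (SE 0.15), Psmd1 at 0.31 (SE 0.12) and Psmc5 at -0.36 (SE 0.15), with edgeR adjusted p of at least 0.660; they are named because they were few, after their values were seen. Psmb10 was at -0.05 (SE 0.19) in WT and at -0.33 (SE 0.17) in S55L hearts, Psmb8 at 0.07 (SE 0.28) and -0.25 (SE 0.23), and Psmb9 at 0.00 (SE 0.28) and 0.01 (SE 0.24). Psmd8 was at 0.10 (SE 0.18) and -0.16 (SE 0.17). Among regulators, Pomp was at -0.06 (SE 0.16) and -0.42 (SE 0.15), Psme1 at 0.03 and -0.20, Nfe2l1 at -0.25 and 0.07, and Nfe2l2 at -0.13 and 0.04. The median SE of a proteasome gene was 0.17 in both comparisons, so changes of that size were within the error.

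The genotype difference was tested for a change between the states by the interaction. Here 0 of 38 proteasome genes were higher and 0 lower, as were 0% and 0% of all genes tested, with 0 at an unadjusted p under 0.05 in the edgeR quasi-likelihood test and 0 called by DESeq2. The values ranged from -0.52 for Psmd3 to 0.41 for Psmc3ip. Psmb10 was at -0.28 (SE 0.25), Psmc5 at -0.41 (SE 0.22), Psmb4 at 0.40 (SE 0.24), Psmd8 at -0.26 (SE 0.24), Pomp at -0.37 (SE 0.22) and Psme1 at -0.23 (SE 0.18). Genes called in 1 state only, such as Psmc4, Psmc5, Psmb5, Psmd6 and Psmd3, were therefore not shown to differ between the states.

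The last comparison asked whether the EH301 diet, given to S55L mice during breeding, moved the proteasome genes of PP hearts. EH301 is a supplement of nicotinamide riboside, from which cells make NAD, and pterostilbene. Of 35 tested, 0 were higher and 0 lower, where 0% and 0% of all genes tested were. The edgeR quasi-likelihood test gave 0 at an unadjusted p under 0.05, out of 138 genes in all, and the DESeq2 test called 0. The median log2 fold change was 0.07, against 0.02 over all genes tested, and the values ranged from -0.62 for Psmc1 to 0.49 for Psmd3.

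Psmb10 was at 130.1, 120.2, 112 and 132 CPM in control diet libraries 1 to 4 and at 124, 167, 106 and 116 CPM in EH301 diet libraries 7 to 10. Psmb8 was at 4.41, 4.49, 11.2 and 5.58 CPM on the control diet and at 6.86, 6.75, 7.58 and 9.97 CPM on the EH301 diet. Psmb9 was at 4.41, 2.62, 2.31 and 3.72 CPM and at 2.74, 0.965, 2.21 and 2.59 CPM, on 1 to 10 counts a library, and was not tested. All 3 overlapped between the diets. The fold changes were 0.05 (SE 0.23) for Psmb10 and 0.19 (SE 0.35) for Psmb8, with edgeR adjusted p of at least 0.9999.

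Psmb5 was at 24.3, 23.2, 22.8 and 19.3 CPM on the control diet and at 18.2, 37.6, 32.2 and 21.1 CPM on the EH301 diet (0.27, SE 0.27). Psmb6 was at 847, 277, 280.1 and 369 CPM and at 243, 635, 267 and 303 CPM (-0.28, SE 0.43). Psmb7 was at 15.4, 61.0, 61.4 and 21.9 CPM and at 50.8, 25.1, 61.6 and 28.4 CPM (0.00, SE 0.41). The diet groups overlapped for each of these genes; for Psmb5 both the highest and the lowest library were on the EH301 diet. Psmd8, the gene that differed most between genotypes in the other study, was at 239 ± 28.2 CPM on the control and 241 ± 29.1 CPM on the EH301 diet (SD, n = 4 and n = 4; 0.01, SE 0.24).

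Pomp was at 0.12 (SE 0.49), Psme1 at -0.19 (SE 0.23), Nfe2l1 at -0.05 (SE 0.24) and Nfe2l2 at 0.05 (SE 0.26). The 31 constitutive subunits summed to 5201 ± 1214 CPM on the control and 5068 ± 1078 CPM on the EH301 diet (SD, n = 4 and n = 4). Leukocyte and macrophage markers, which ranged from 2491 to 4783 CPM and from 1796 to 5631 CPM, had no member called.

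The spread was wider than in the other study, and control diet 1 lay farthest from the median of the libraries. The coefficient of variation of a constitutive subunit had a median of 27.3% on the control and 30.4% on the EH301 diet, against 12.2% to 18.5% in the groups of the postpartum study. Control diet 1 was the highest or lowest of the 8 libraries for 21 of the 31 constitutive subunits, EH301 diet 8 for 12, and EH301 diet 7, a library of 2887745 reads on genes, for 14. In control diet 1 Psmc1 was at 1667 CPM, against 289 to 625.1 in the others, and Psma2 was at 8.82 CPM, against 47.3 to 193. Without the 2 shallow libraries, control diet 1 and EH301 diet 8, an alternative added after the data were seen, the counts stayed at 0 and 0 and the median of the proteasome genes was 0.01. The part of depth in the values of these libraries was not tested.

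**Figure D4:**
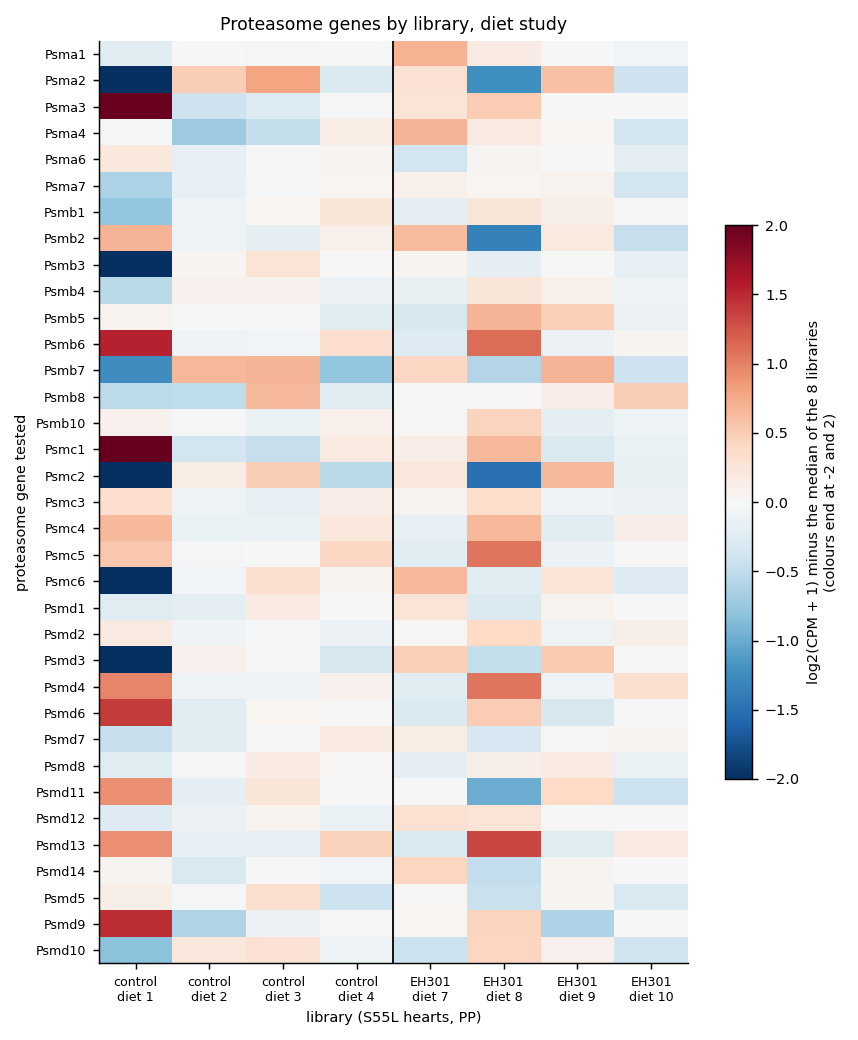
Each cell gives log2(CPM + 1) minus the median of the 8 libraries (colour) for the 35 proteasome genes tested (y axis) in the 8 libraries of the diet study (x axis, the line parts the diets). Control diet 1 and EH301 diet 8, the libraries with 466651 and 1141997 reads on genes, lie farthest from the median; EH301 diet 7 comes next.

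The levels of single proteasome genes were not on 1 scale in the 2 studies. In libraries labelled S55L and PP, Psma5 was at 66.6 to 86.6 CPM in the postpartum study and at 2.21 to 3.63 CPM in control diet libraries, and Psmd14 at 101 to 158 CPM and at 18.7 to 24.3 CPM, whereas Psmd8 was at 206 to 257 CPM and at 203 to 271 CPM. The tables list different sets of genes, so these values stand side by side and were not tested.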

How the data were processed

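Gene counts from 3′ mRNA sequencing of mouse heart were deposited by the authors as 2 tables, 1 for the postpartum and 1 for the diet study. Per the submitters' processing notes, Trimmomatic 0.39, STAR 2.7.0f, HTSeq 0.6.1 and a build named GRCm39.p6 were used; the annotation release, strand setting and counting mode are not given in the sources used here. The summary lines for unassigned reads were kept out, which left 57.5% to 69.2% of reads on genes. Symbols came from GENCODE M21 by Ensembl ID and covered at least 99.4% of reads on genes. Each table was fitted alone in edgeR 4.0.16 (R 4.3.3): filterByExpr, trimmed-mean scaling, robust quasi-likelihood test, Benjamini-Hochberg threshold 0.05. The 4 groups of the postpartum study shared 1 estimate of the spread, without a replicate block. DESeq2 1.42.0 served as an alternative, beside other scalings, no filter, thinned counts, leaving out each library and a replicate block. The fitting was tested on simulated data.

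Values in every library are given for the catalytic and immunoproteasome subunits and for whichever called members rose and fell most; the other members are given by role, with the SE and adjusted p of called ones. From related lists, up to 4 called genes with the lowest adjusted p were named, beside Nfe2l1, Nfe2l2, Pomp and Psme1; Ubb in naive and Ifit3 in PP hearts stand outside that rule. Members and gene lists were chosen with earlier results of these data known. Libraries of WT PP and S55L PP that carry 1 number had deviations correlated at 0.119 to 0.333 over 4 pairs, while each other pair of groups had at least 1 correlation at or below 0.1, and no label gives the number a meaning. One item of the promoter search is not reported here.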

Additional observations from a re-analysis of the deposited data

Results flagged for a closer look

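In 6 of the 78 groups of libraries tested, 1 library lay far from the others; chance flags about 1 in 20 groups. Psmb5 was at 131 CPM in WT PP 5, against 86.1 to 89.9 in the other WT PP libraries. Psmb6 was at 250.3 CPM in S55L PP 5, against 199 to 201 in the others, at 847 CPM in control diet 1, against 277 to 369, and at 635 CPM in EH301 diet 8, against 243 to 303. Control diet 1 and EH301 diet 8 are the 2 shallow libraries of that study. Psmb10 was at 102.8 CPM in S55L naive 3, against 68.7 to 75.5, and the sum of the immunoproteasome subunits was at 136 CPM in the same library, against 87.6 to 99.6. Leaving out S55L naive 3 kept the call of Psmb10 in naive hearts.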

How the results depend on the processing

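Leaving out 1 library at a time gave 11 to 14 proteasome genes higher and 0 to 1 lower in naive hearts, 9 to 13 higher and 0 to 1 lower in PP hearts, and 0 in the other 4 comparisons. In naive hearts Psmb4 was called lower without S55L naive 3, without S55L PP 1, in a fit of only the compared groups (15 higher, 1 lower) and with the replicate block (15 higher, 1 lower); in PP hearts the replicate block gave 14 higher and 1 lower. Thinning all libraries to the lowest depth gave 14 higher and 0 lower in naive hearts, where all 13 calls were kept. Of all genes tested, 20.6% were then higher and 20.1% lower. In PP hearts thinning gave 11 higher and 1 lower, where 14.6% and 14% of all genes tested were. Psma3 and Psmd6 lost their PP calls with it. No paired analysis was possible for the diets because their libraries share no numbers. In PP hearts a fit of only the compared groups gave 8 higher, library totals 19 higher and 0 lower, and leaving out WT PP 5 or S55L PP 5 gave 0 lower. The plate column term gave 8 higher in naive hearts, where 11.6% of all genes tested were higher. In PP hearts the fit with this term in effect set S55L PP 5 against WT PP 1. With the term Psmd11 turned to -0.045 in naive and -0.067 in PP hearts, and Psmb10 had an edgeR adjusted p of 0.0542 in naive hearts. Among single genes 47 values lost their call and 12 gained one under some alternative. Another 2, both of Psmd11 with the plate column term, changed sign and lost their call. The cause of these moves was not tested. In the postpartum study Psmc3ip rested on 1 to 12 counts a library and Psmb8 on 10 to 79.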
